A study of Mus musculus with 4 samples.

Results

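The heterochronic RNA-binding and HMGA genes Igf2bp1, Igf2bp2, Igf2bp3, Lin28a, Lin28b, Hmga1, Hmga2 and Onecut2, known from work on developmental timing, were followed in single-cell RNA sequencing of mouse cerebral cortex before birth and on the day of birth. These 8 members, of 57126 features counted in every library, were picked by gene symbol with their decline from E14.5 to P0 in these same data already known. The comparison of the ages is therefore given as a description, and nothing is tested on it. The values behind the choice were the summed counts at E14.5 and P0. Of the 8, Hmga1 did not decline beyond counting error over all cells and Lin28a was all but undetected, so the description of a shared decline holds for the other 6.

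Igf2bp1, Igf2bp2 and Igf2bp3 encode cytoplasmic proteins that bind messenger RNAs and alter their stability, transport and translation, and they are best known from embryonic and tumour cells. Lin28a and Lin28b encode RNA-binding proteins that block the maturation of let-7 microRNAs, and the let-7 family in turn represses Lin28a, Lin28b, the Igf2bp genes and Hmga2 through sites in their 3' untranslated regions (UTRs), so that the pair acts as a switch between early and late states. Hmga1 and Hmga2 encode chromatin proteins that bind AT-rich DNA, and Hmga2 is known for sustaining young neural stem cells. Onecut2 encodes a transcription factor of the Cut homeodomain class that is active in early-born neurons and is neither RNA-binding nor of the high mobility group, so the working name of the set covers it only loosely.

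The 4 groups were 2 genotypes at each of 2 ages: wild type and knockout of Tsku (Tsukushi, a secreted leucine-rich proteoglycan) at E14.5 and at P0. Each group was 1 library from the cerebral cortex of 1 mouse, dissociated with trypsin, with 15000 cells put into a bead-capture kit (Asteria). With 1 animal per group there is no replicate spread, so every interval below is a 95% interval for counting error only, and every difference is between libraries. Levels are counts per 1000000 counts (CPM), from the counts summed over the named cells, and an age comparison is called the wild-type pair or the knockout-label pair.

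The libraries held 618 cells of E14.5 wild type, 4107 of the E14.5 library labelled knockout, 1044 of P0 wild type and 1430 of P0 knockout after filtering, with 5584291, 14404051, 6025289 and 8812049 counts. Tsku, the deleted gene, had 52, 74, 42 and 0 counts, so the E14.5 library labelled knockout carried Tsku at 5.14 CPM against its label, while P0 knockout had none. The labelled E14.5 knockout was also the only library rich in Xist, with 6719 counts against 1 to 3 elsewhere, and the only one that lacked the Y-linked Ddx3y, with 1 count against 496 to 1190, so sex and label cannot be told apart at E14.5. The 2 libraries of the knockout-label pair also differ in these transcripts and in Tsku. In that pair age therefore cannot be told apart from sex or from the presence of Tsku. E14.5 wild type held 26 barcodes of more than 20000 counts with 14.5% of its counts, against 1.57% to 5.41% in the other libraries, and 2 of these also occurred as barcodes in another library. In all, 4 distinct barcodes occurred in more than 1 library.

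Cells were assigned to 13 classes by lists of 8 markers each, and the names stand for cells that are like the named type. The radial glia and astroglia class (Pax6, Sox2, Slc1a3 and others) held 82, 603, 241 and 440 cells in the order above, projection neurons (Neurod2, Tbr1 and others) 242, 1311, 450 and 439, inhibitory neurons 121, 754, 161 and 135, and intermediate progenitors 54, 387, 24 and 80. Small classes from outside the cortex proper were also present, among them choroid plexus epithelium with 19, 127, 0 and 0 cells and thalamic-type neurons with 8, 75, 1 and 0.

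The sequence that links most of these genes is the let-7 seed, bases 2 to 8 of the mature microRNA, shown in capitals. All 8 mouse let-7 sequences compared carry the same seed; 4 of them are printed, followed by one microRNA each of the miR-125 and miR-9 families, which have also been studied in cortical timing (RefSeq, build GRCm38.p6, 5' to 3').
mmu-let-7a-5p: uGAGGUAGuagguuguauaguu
mmu-let-7b-5p: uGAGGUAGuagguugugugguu
mmu-let-7d-5p: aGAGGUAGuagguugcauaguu
mmu-let-7i-5p: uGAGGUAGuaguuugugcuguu
mmu-miR-125b-5p: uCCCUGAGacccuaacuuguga
mmu-miR-9-5p: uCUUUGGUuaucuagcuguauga

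The DNA letters complementary to the let-7 seed, CTACCTC on the transcript's strand, were searched in the longest annotated 3' UTR of each member (GENCODE, build GRCm38). All 8 members held at least 1 match, against 9.02% of 21010 genes. Igf2bp1, Lin28b and Hmga2 held 4 each, Lin28a held 2, and Igf2bp2, Igf2bp3, Hmga1 and Onecut2 held 1 each. Long UTRs hold more matches by length alone. Genes of like length were taken as those whose UTR was at most 25% longer or 20% shorter, the member itself included. Among 604 genes of a length like that of Igf2bp1, 34.3% held a match and 0.331% held 4 or more, and among 2437 genes of a length like that of Hmga2 these shares were 16.0% and 0.123%. For Onecut2, with a UTR of 14356 bases, 60% of only 30 genes of like length held a match. A match is a description of letters, and no binding was measured.

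One match each is printed for 7 of the members, all but Onecut2, with the seed match in capitals (build GRCm38). The capitals are the letters searched for and so are the same in each. A match followed by an adenine was printed by preference where a member had one. In Lin28b and in Hmga2 only 1 of the 4 matches was of that kind. Igf2bp1 lies at chr11:95961778-95961800 on the minus strand, Igf2bp2 at chr16:22059473-22059495 minus, Igf2bp3 at chr6:49086787-49086809 minus, Lin28a at chr4:134005189-134005211 minus, Lin28b at chr10:45381022-45381044 minus, Hmga1 at chr17:27563277-27563299 plus and Hmga2 at chr10:120364224-120364246 minus. All of them lie in the 3' UTR. The identifiers of these genes in the counts are ENSMUSG00000013415, ENSMUSG00000033581, ENSMUSG00000029814, ENSMUSG00000050966, ENSMUSG00000063804, ENSMUSG00000046711 and ENSMUSG00000056758 in the same order, and that of Onecut2 is ENSMUSG00000045991.
Igf2bp1: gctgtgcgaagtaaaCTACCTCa
Igf2bp2: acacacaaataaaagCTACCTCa
Igf2bp3: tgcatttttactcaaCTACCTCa
Lin28a: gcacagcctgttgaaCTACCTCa
Lin28b: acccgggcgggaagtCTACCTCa
Hmga1: tcctctgttcacaaaCTACCTCt
Hmga2: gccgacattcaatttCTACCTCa

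The match to miR-9, ACCAAAG, occurred in 12.2% of all 3' UTRs and in 7 of the 8 members, 14 times in that of Onecut2. No other gene searched had as many. Igf2bp1 had none. The match to miR-125, CTCAGGG, occurred in 13.1% of all 3' UTRs and in 3 of the 8 members, Igf2bp3, Lin28a and Lin28b, once each. Among genes of a length like theirs 20.4%, 24.7% and 32.5% held one.

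Over all analysed cells, the 3 Igf2bp genes were higher at E14.5 than at P0 in both pairs. The level of Igf2bp1 was 101 CPM in E14.5 wild type, 117 CPM in the E14.5 library labelled knockout, 33.4 CPM in P0 wild type and 30.5 CPM in P0 knockout. Both E14.5 libraries were above both P0 libraries, with intervals of 93.0 to 110 and 111 to 122 CPM at E14.5 and of 28.9 to 38.3 and 27.0 to 34.4 CPM at P0. The log2 ratio of E14.5 over P0 was 1.60 (1.37 to 1.84) in the wild-type pair and 1.93 (1.75 to 2.13) in the knockout-label pair.

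Igf2bp2, the member of the trio that adult tissues also use, stood at 42.4, 63.0, 9.46 and 8.96 CPM in the same order. It had the larger log2 age ratios of the trio, 2.17 (1.74 to 2.61) and 2.81 (2.48 to 3.16), which correspond to folds of 4.49 and 7.02. Igf2bp3 stood at 72.5, 121, 44.8 and 47.1 CPM. Its E14.5 libraries lay farther apart from each other than its P0 libraries did, and its log2 age ratio was 0.69 (0.47 to 0.92) in the wild-type pair and 1.36 (1.21 to 1.52) in the other. In these sums over all cells, fewer cells of a type and less RNA per cell cannot be told apart, and the classes are taken up further on.

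**Figure D1:**
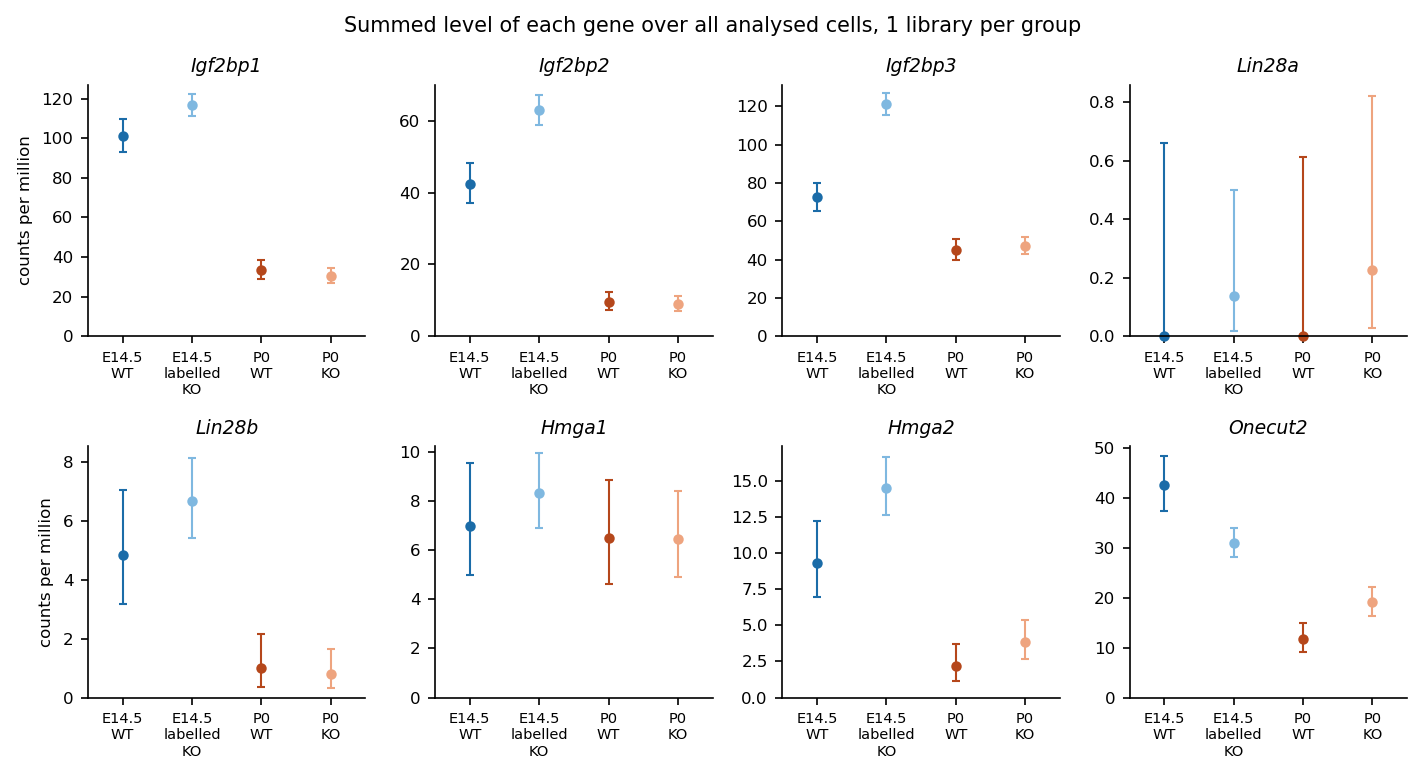
Summed level (CPM, linear axis from 0) of each of the 8 genes over all analysed cells in the 4 libraries, 1 library per group, with exact Poisson 95% intervals as bars. Igf2bp1, Igf2bp2, Igf2bp3, Lin28b, Hmga2 and Onecut2 are higher in both E14.5 libraries than in both P0 libraries, whereas the Hmga1 intervals overlap in all 4 and Lin28a has at most 2 counts.

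Lin28a, which keeps let-7 low in the youngest embryonic cells, had 0, 2, 0 and 2 counts, so it was not detectable at this depth (3 counts would be 0.208 to 0.537 CPM). Lin28b, its later-expressed paralog, had 27, 96, 6 and 7 counts, or 4.83, 6.66, 0.996 and 0.794 CPM. The E14.5 libraries were above the P0 libraries without overlap of the intervals, with log2 age ratios of 2.28 (0.97 to 3.85) and 3.07 (1.97 to 4.42). Without barcodes of more than 20000 counts, Lin28b fell under the minimum of 30 counts for a call in the wild-type pair, where its log2 ratio was then 1.72.

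Hmga2 had 52, 209, 13 and 34 counts, or 9.31, 14.5, 2.16 and 3.86 CPM. Its log2 age ratios were 2.11 (1.21 to 3.11) and 1.91 (1.38 to 2.48). Its relative Hmga1 behaved differently, with 6.98, 8.33, 6.47 and 6.47 CPM and log2 age ratios of 0.11 (-0.57 to 0.79) and 0.37 (-0.10 to 0.85). The intervals of all 4 libraries overlapped, so the data gave no age difference for Hmga1 beyond counting error. With cells thinned to 1500 counts each, which leaves few counts, the ratio of the wild-type pair was -1.56.

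Hmga1 has a near-identical copy, Hmga1b, and reads may be split between both rows, so both are uncertain. Hmga1b stood at 30.3, 12.1, 19.4 and 14.6 CPM. The sum of both rows had log2 age ratios of 0.52 (0.22 to 0.83) in the wild-type pair and -0.05 (-0.32 to 0.22) in the knockout-label pair. The row of the pseudogene Hmga2-ps1 had 0, 6, 1 and 11 counts. In P0 knockout these 11 stood against 34 counts of Hmga2, and 10 of them were in microglia. Whether reads were split between the Hmga2 and Hmga2-ps1 rows was not tested.

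Onecut2 stood at 42.6, 30.9, 11.8 and 19.1 CPM. Both E14.5 libraries were above both P0 libraries, but the library labelled knockout was the lower one at E14.5 and the knockout the higher one at P0. The log2 age ratio was therefore 1.85 (1.47 to 2.26) in the wild-type pair and 0.70 (0.44 to 0.96) in the other.

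Counted together, 7 of the 8 members had at least 30 counts over the libraries of a pair, and 5 of these 7 were at least 2-fold higher at E14.5 in the wild-type pair, where 5.05% of 13261 features were. In the knockout-label pair 5 of 7 were, where 6.13% of 14713 features were. Lin28b, Hmga2, Igf2bp1 and Igf2bp2 were past 2-fold in both pairs, Onecut2 in the wild-type pair and Igf2bp3 in the knockout-label pair. The members nearest to the line were Igf2bp1 inside (1.60) and Igf2bp3 outside (0.69) in the wild-type pair, and Igf2bp3 inside (1.36) and Onecut2 outside (0.70) in the other. The median log2 ratio of the measured members was 1.85 and 1.91, against -0.07 and -0.08 over all features. Since the members were chosen on this contrast, these counts carry no evidence beyond the choice.

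**Figure D2:**
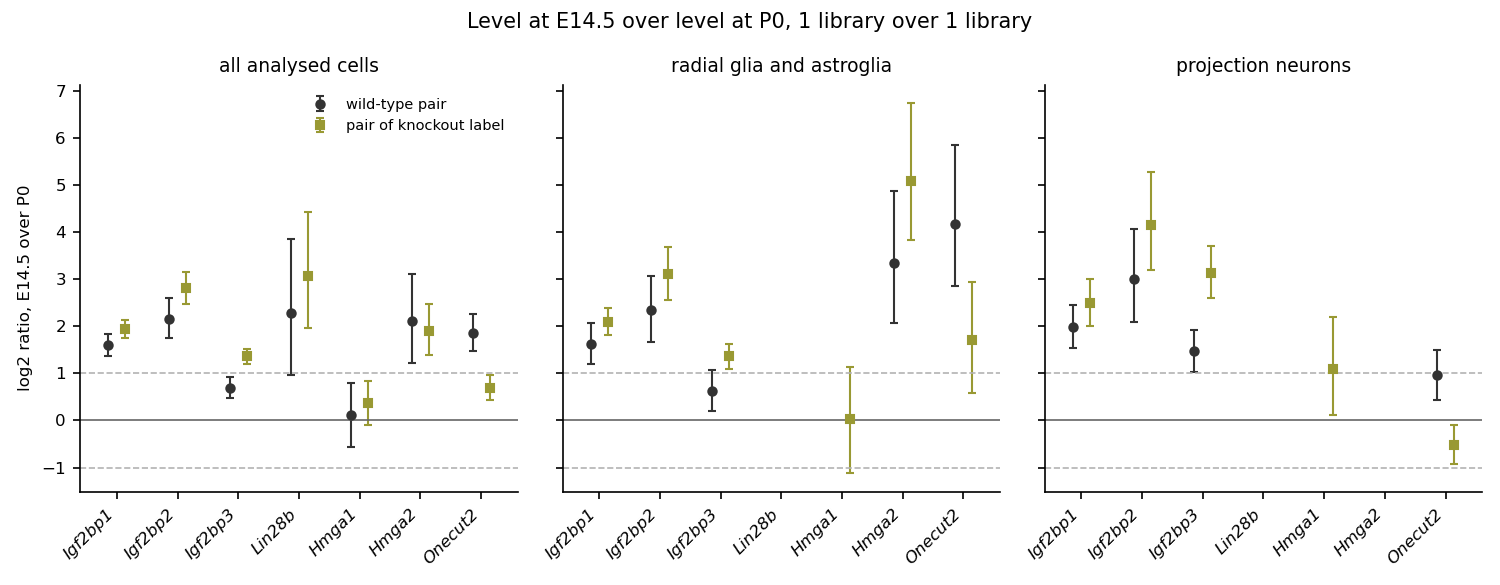
Log2 ratio of the level at E14.5 over that at P0 for 7 genes in all analysed cells, in radial glia and astroglia, and in projection neurons, with conditional binomial 95% intervals, shown where both libraries together hold at least 30 counts and neither is at 0. Circles are the wild-type pair, squares the knockout-label pair, and dashed lines mark 2-fold. The Igf2bp genes lie above 0 in every panel, Hmga2 is higher in radial glia than over all cells in both pairs, and Onecut2 lies on opposite sides of 0 in projection neurons.

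Among radial glia and astroglia, the class that holds the neural stem cells, the age difference persisted within the class. Igf2bp1 stood at 137 CPM (128 counts), 184 CPM (399 counts), 44.2 CPM (72 counts) and 43.1 CPM (132 counts). Its log2 age ratio was 1.63 (1.20 to 2.07) in the wild-type pair and 2.10 (1.81 to 2.39) in the knockout-label pair. Igf2bp2 stood at 74.9, 90.1, 14.7 and 10.5 CPM, with log2 age ratios of 2.34 (1.66 to 3.08) and 3.11 (2.56 to 3.69). For both genes the P0 intervals lay below the E14.5 intervals. Igf2bp3 stood at 88.8, 164, 57.1 and 63.7 CPM, with the least of the trio's age ratios, 0.64 (0.19 to 1.08) and 1.36 (1.10 to 1.62).

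Hmga2, known for sustaining young neural stem cells, had most of its E14.5 counts in this class. Its level was 37.4 CPM (35 counts) in E14.5 wild type, 55.9 CPM (121 counts) in the E14.5 library labelled knockout, 3.69 CPM (6 counts) in P0 wild type and 1.63 CPM (5 counts) in P0 knockout. The P0 radial glia thus held 11 counts over 681 cells, and the log2 age ratios were 3.34 (2.08 to 4.88) and 5.10 (3.83 to 6.74). In the knockout-label pair this ratio was 4.37 after thinning and 5.82 without the barcodes of the 5% highest doublet scores. Within the libraries, radial glia held 67.3% of all Hmga2 counts in E14.5 wild type and 57.9% in the E14.5 library labelled knockout, while they held 16.7% and 15.03% of all counts. Over the other cells of the same library the log2 ratio was 3.36 (2.48 to 4.28) and 2.96 (2.55 to 3.37). Projection neurons had 3, 7, 3 and 0 Hmga2 counts.

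Onecut2 in radial glia stood at 55.6, 10.6, 3.07 and 3.27 CPM, from 52, 23, 5 and 10 counts. The value of E14.5 wild type rests on few cells: 11 of 82 had a count, 7 barcodes of more than 20000 counts held 36 of the 52, and the 2 of these that also occur in another library held 27. Without barcodes of more than 20000 counts the E14.5 wild-type level was 24.1 CPM and the log2 age ratio was 3.25 in place of 4.18 (2.86 to 5.86). With classes taken from clusters it was 2.80. In the knockout-label pair it was 1.70 (0.57 to 2.94), and 1.07 after thinning. Lin28b had 2, 9, 0 and 0 counts in the class, and Hmga1 stood at 7.49, 6.01, 6.14 and 5.88 CPM, with overlapping intervals.

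Of the members with enough counts in radial glia, 4 of 5 were at least 2-fold higher at E14.5 in the wild-type pair, where 5.12% of features were, and 5 of 6 in the knockout-label pair, where 7.87% were.

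**Figure D3:**
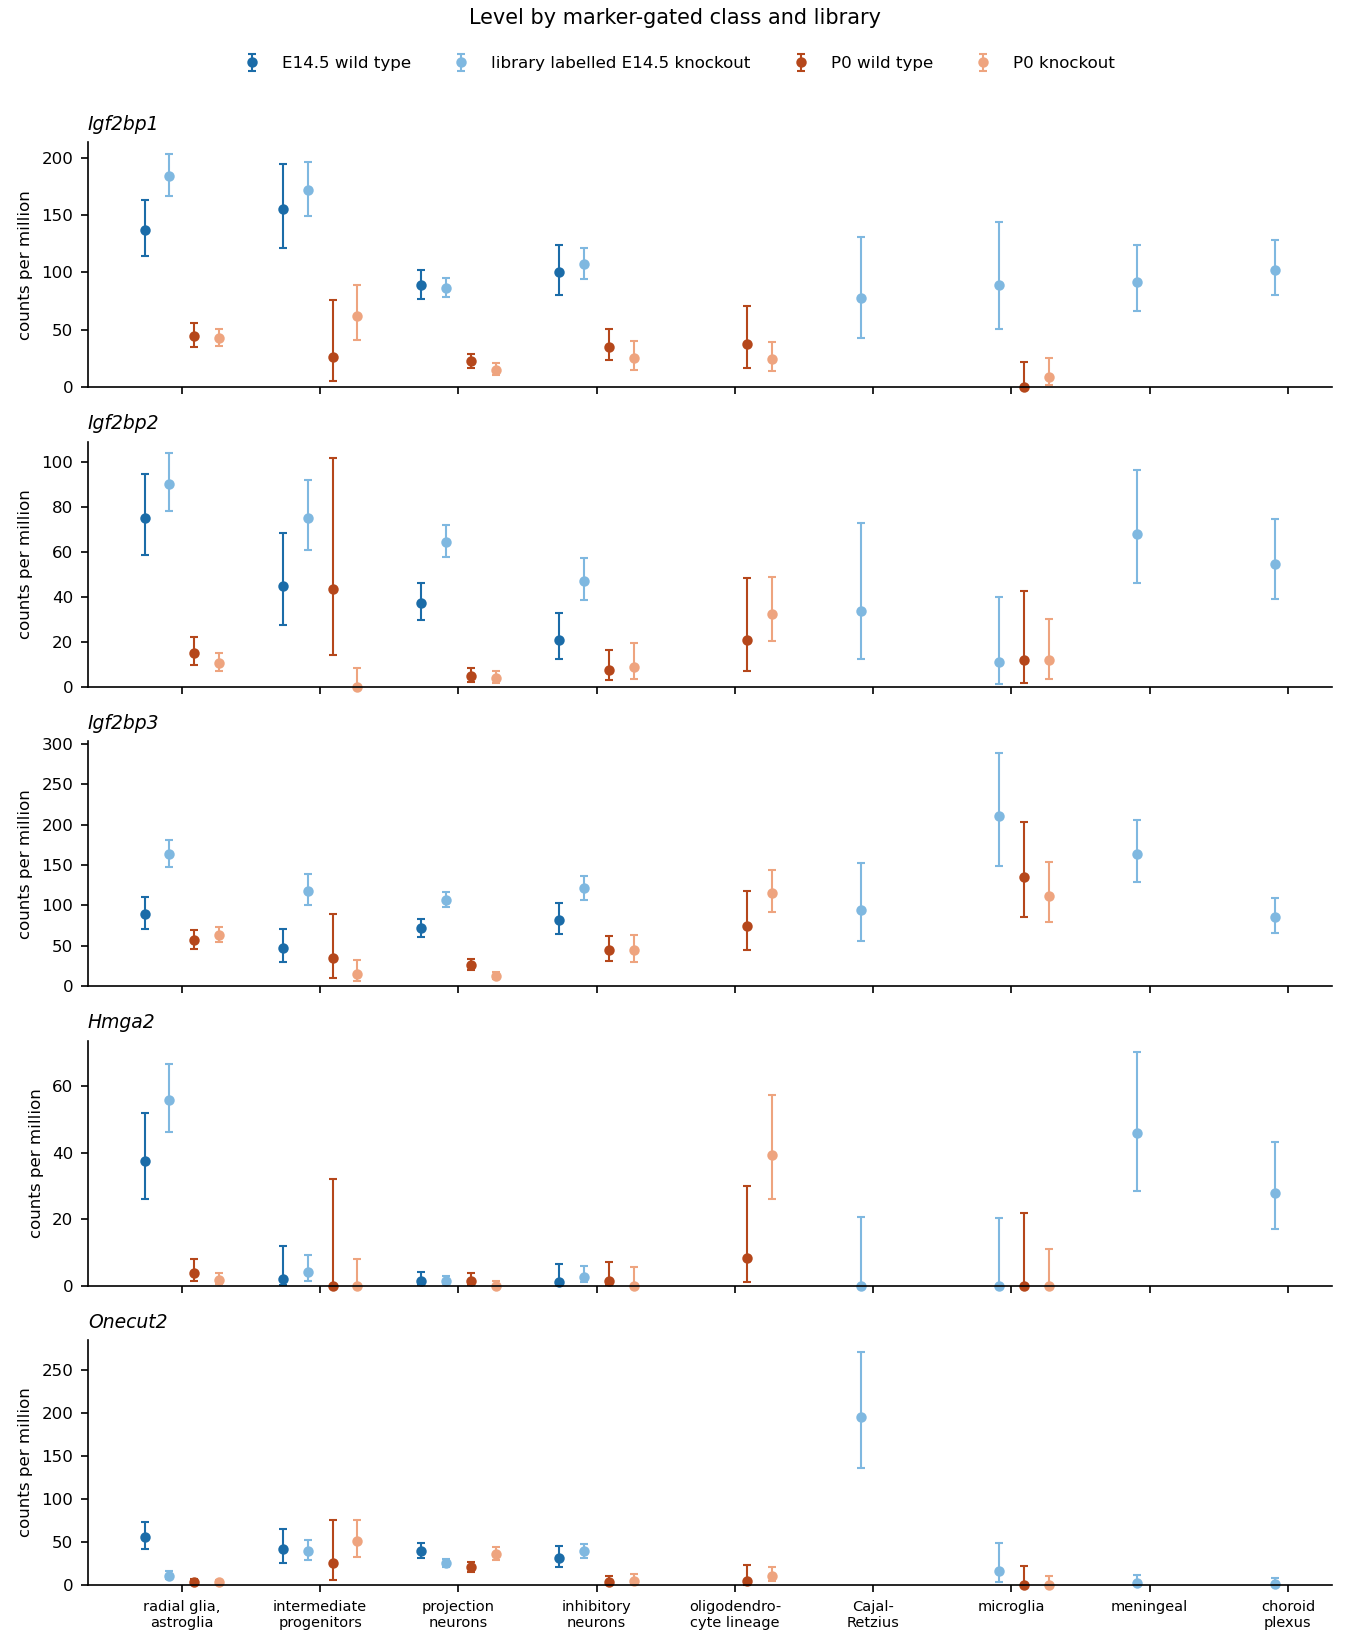
Level (CPM, linear axes from 0) of Igf2bp1, Igf2bp2, Igf2bp3, Hmga2 and Onecut2 in 9 marker-gated classes and 4 libraries, with exact Poisson 95% intervals, for classes of at least 20 cells in a library. The Igf2bp genes are spread over the E14.5 classes. Hmga2 stands out in radial glia, meningeal and choroid plexus cells at E14.5 and in the oligodendrocyte lineage of the P0 knockout, and Onecut2 in Cajal-Retzius cells of the E14.5 library labelled knockout.

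The radial glia were then split by cell cycle markers, counted after every cell had been thinned to 1500 counts so that depth did not set the split. Cells with 1 cycling marker were left out. In cells with 2 or more of 8 cycling markers, Igf2bp1 stood at 177, 192, 71.6 and 70.9 CPM. In cells with none it stood at 94.8, 168, 34.4 and 29.96 CPM. Cycling cells were higher in each library, with log2 ratios of 0.90 (0.26 to 1.59), 0.19 (-0.16 to 0.57), 1.06 (0.33 to 1.79) and 1.24 (0.70 to 1.79), the second of which is within counting error.

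The age difference of Igf2bp1 was present on both sides of that split, at 1.31 and 1.44 among cycling cells and at 1.46 and 2.49 among the others (wild-type pair, then knockout-label pair). Igf2bp2 among cycling radial glia had log2 age ratios of 3.28 (1.95 to 4.97) and 3.45 (2.36 to 4.80). Igf2bp3 among cycling cells had 0.24 (-0.40 to 0.89) and 1.00 (0.62 to 1.40), so that in the wild-type pair the cycling cells showed no age difference beyond counting error. Hmga2 was higher in cycling radial glia of the E14.5 library labelled knockout, at 64.4 against 24.0 CPM, a log2 ratio of 1.42 (0.55 to 2.43), and measured 51.2 against 28.1 CPM in E14.5 wild type, 0.87 (-0.34 to 2.23).

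At P0 the class also holds young astrocytes. Radial glia and astroglia with 3 or more of 8 astrocyte markers numbered 140 in P0 wild type and 271 in P0 knockout. Igf2bp1 stood at 26.0 and 28.2 CPM in them and at 66.1 and 66.0 CPM in the other cells of the class, log2 ratios of -1.35 (-2.13 to -0.60) and -1.23 (-1.76 to -0.71). The log2 age ratios of Igf2bp1 over the whole class were thus larger than among cells with fewer astrocyte markers, where they were 1.08 (0.59 to 1.58) and 1.51 (1.16 to 1.87). Igf2bp3 stood at 40.6 against 76.9 CPM across this split in P0 wild type and at 63.9 against 63.5 CPM in P0 knockout, and the difference between these libraries was not tested. For Hmga2 the age ratio among cells with under 3 astrocyte markers was 2.51 (1.15 to 4.22) and 4.41 (2.83 to 6.71).

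**Figure D4:**
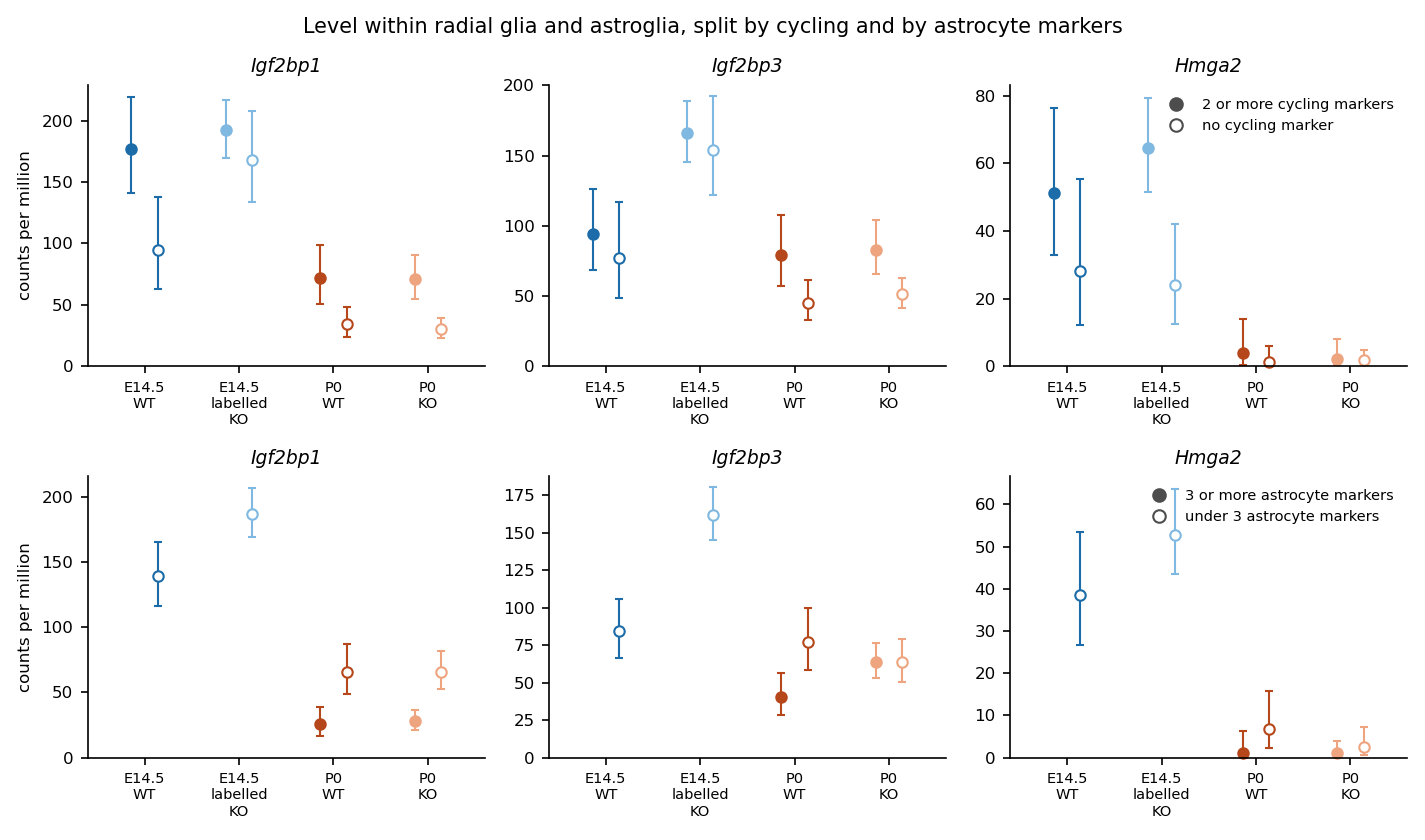
Level (CPM, linear axes from 0) of Igf2bp1, Igf2bp3 and Hmga2 within radial glia and astroglia of the 4 libraries, with exact Poisson 95% intervals. The upper row splits the cells by cycling markers and the lower row by astrocyte markers (filled, marker-rich; open, the others), for sides of at least 20 cells. At P0 Igf2bp1 is lower in the astrocyte-marker-rich cells and higher in the cycling cells of both libraries.

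Projection neurons, the class with most cells in 3 of the 4 libraries, had larger log2 age ratios than radial glia for each of the 3 Igf2bp genes in both pairs. Igf2bp1 stood at 88.7, 86.3, 22.5 and 15.4 CPM, with log2 age ratios of 1.98 (1.54 to 2.44) and 2.49 (2.01 to 3.01). Igf2bp2 stood at 37.0, 64.5, 4.58 and 3.65 CPM, from 81, 313, 11 and 9 counts, with ratios of 3.02 (2.10 to 4.07) and 4.15 (3.20 to 5.29). Igf2bp3 stood at 71.3, 107, 25.8 and 12.2 CPM, with ratios of 1.47 (1.03 to 1.92) and 3.13 (2.60 to 3.71). For each of the 3 genes, both P0 intervals lay below both E14.5 intervals.

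Projection neurons of E14.5 and P0 are not of the same layers, since most deep-layer neurons are born first. Among cells with more upper-layer than deep-layer markers (130, 341, 418 and 404 cells), the log2 age ratios were 1.86 and 2.52 for Igf2bp1, 3.23 and 4.20 for Igf2bp2, and 1.31 and 3.11 for Igf2bp3, close to those of the whole class. At P0 these cells were 418 of 450 and 404 of 439, nearly the whole class, so this closeness was partly set in advance. The split counts markers, and the layer of the cells was not tested. At E14.5 Igf2bp1 and Igf2bp3 did not differ between deep-layer and upper-layer cells beyond counting error. Lin28b had 4, 27, 0 and 1 counts in the class, and Hmga1 stood at 6.86, 9.48, 4.996 and 4.46 CPM.

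Onecut2 did not follow the Igf2bp genes in projection neurons. It stood at 39.8, 25.5, 20.4 and 36.5 CPM, from 87, 124, 49 and 90 counts. The levels of the ages overlapped, with E14.5 wild type and P0 knockout high and the other libraries low. The log2 age ratio was 0.96 (0.44 to 1.499) in the wild-type pair and -0.51 (-0.92 to -0.10) in the knockout-label pair, where it was -0.05 with classes taken from clusters. Deep-layer cells were higher than upper-layer cells in E14.5 wild type (50.8 against 31.5 CPM), in the E14.5 library labelled knockout (29.5 against 12.2 CPM) and in P0 knockout (107 CPM, from 12 counts in 20 cells, against 31.0). The deep-layer cells of P0 wild type numbered 14 and had no count.

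In projection neurons 3 of 4 measured members were at least 2-fold higher at E14.5 in the wild-type pair, where 3.96% of features were, and 4 of 5 in the knockout-label pair, where 8.2% were. These were the 3 Igf2bp genes, joined by Hmga1 in the second pair at 1.09 (0.12 to 2.19), from 46 and 11 counts. In that pair Hmga1b was at -0.09 (-0.81 to 0.66). Hmga1 and Hmga1b together were at 0.37 (-0.19 to 0.96), so the Hmga1 call depends on how reads were split between the rows. In the wild-type pair both rows together stood at 35.2 CPM (27.8 to 44.0) at E14.5 and 15.8 CPM (11.2 to 21.7) at P0. In inhibitory neurons of that pair they stood at 50.8 CPM (36.9 to 68.1) and 21.4 CPM (12.4 to 34.2). In both classes these intervals lay apart. The intervals of the ages overlapped in radial glia of both pairs and in inhibitory neurons of the knockout-label pair.

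Intermediate progenitors, the dividing cells between radial glia and neurons, numbered only 24 in P0 wild type. Igf2bp1 stood at 155, 172, 26.1 (3 counts) and 61.7 CPM in them, and cycling cells of the class were higher in the E14.5 library labelled knockout (249 against 147 CPM). Igf2bp2 stood at 44.6, 75.1, 43.5 (5 counts) and 0 CPM. With 3 counts taken as the floor, P0 knockout was 11.4-fold below the E14.5 library labelled knockout. Igf2bp3 stood at 46.7, 118, 34.8 and 15.4 CPM, from 22, 148, 4 and 7 counts. In the wild-type pair the intervals of Igf2bp2 and of Igf2bp3 overlapped, so neither gave an age difference beyond counting error. Of measured members, 1 of 1 in the wild-type pair (8.55% of features) and 3 of 4 in the knockout-label pair (7.64%) were at least 2-fold higher at E14.5.

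Inhibitory neurons gave the same order of ages. Igf2bp1 stood at 100.4, 107, 35.2 and 25.2 CPM, Igf2bp2 at 20.8, 47.1, 7.54 and 8.90 CPM, and Igf2bp3 at 81.9, 121, 45.2 and 44.5 CPM. Onecut2 fell from 31.1 CPM (27 counts) and 39.0 CPM (87 counts) at E14.5 to 3 counts in each P0 library, ratios of 8.27 and 8.77 with log2 intervals of 1.35 to 5.41 and 1.54 to 5.44. Onecut2 was thus low at P0 in inhibitory neurons and not in projection neurons. Of measured members, 2 of 3 (2.61% of features) and 4 of 4 (7.72%) were at least 2-fold higher at E14.5.

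Some members were highest in small classes. Igf2bp3 stood at 80.4 CPM (9 counts), 211 CPM (38 counts), 135 CPM (23 counts) and 112 CPM (38 counts) in microglia, the immune cells of the brain, so that at P0 it was higher there than in the other cells by 1.68 (1.00 to 2.30) and 1.33 (0.81 to 1.82) on the log2 scale. Microglia had 3, 16, 0 and 3 counts of Igf2bp1 and none of Hmga2 in any library, while the row of the pseudogene Hmga2-ps1 had 0, 5, 1 and 10 there.

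The oligodendrocyte lineage, glial precursors that had 42 and 111 cells at P0, had counts of all 3 Igf2bp genes. Igf2bp1 stood at 37.4 CPM (9 counts) in P0 wild type and 24.8 CPM (17 counts) in P0 knockout, within counting error of the other cells of each library. Igf2bp3 stood at 74.8 CPM (18 counts) in P0 wild type and 115 CPM (79 counts) in P0 knockout, and Igf2bp2 at 20.8 CPM (5 counts) and 32.1 CPM (22 counts). In P0 knockout Igf2bp2 was higher in this class than in the other cells by 2.20 (1.41 to 2.93) on the log2 scale. Under the minimum of 30 counts for a call, Hmga2 had 2 counts in P0 wild type and 27 counts in 16 cells in P0 knockout. The ratio was 4.74 in CPM, with a log2 interval of 0.25 to 5.36. These 27 were 79.4% of the library's 34 Hmga2 counts, while the class held 7.77% of all counts of that library. Cycling and other cells of the class stood at 49.2 CPM (4 counts in 11 cells) and 40.3 CPM (23 counts in 95 cells). At E14.5 the class held only 2 and 7 cells, with 2 Hmga2 counts each and 4 and 3 counts of Igf2bp2 (185 and 113 CPM), too few cells for an age comparison.

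Outside the neural classes, Hmga2 stood at 46.0 CPM (21 counts) in meningeal fibroblasts and 28.0 CPM (20 counts) in choroid plexus epithelium of the E14.5 library labelled knockout. Lin28b, in the same library, stood at 48.6 CPM (12 counts) in thalamic-type neurons, above the other cells by 3.04 (2.03 to 3.92) on the log2 scale. The 8 thalamic-type cells of E14.5 wild type had 7 Lin28b counts, 5 of them from 1 cell. Onecut2 stood at 195 CPM (35 counts in 11 of 47 cells) in Cajal-Retzius cells, the earliest neurons of the marginal zone, and at 134 CPM (33 counts) in thalamic-type neurons of the E14.5 library labelled knockout.

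Classes change in size with age, and the sums over all cells mix this with the level per class. Radial glia, intermediate progenitors, projection neurons, inhibitory neurons and the ungated cells could be compared in both pairs, and microglia in the knockout-label pair. The oligodendrocyte lineage, with 79.4% of the Hmga2 counts of P0 knockout, was left out for its few E14.5 cells, so the ratios here differ from those over all cells. With the class shares of E14.5 applied to the P0 levels of the groups of cells with enough cells in both libraries, the log2 age ratio of Igf2bp1 was 1.73 in place of 1.65 in the wild-type pair and 2.03 in place of 1.92 in the other. That of Hmga2 was 2.56 in place of 2.26 and 4.38 in place of 3.87, where the ratio over all cells of the knockout-label pair, the oligodendrocyte lineage included, was 1.91. That of Onecut2 was 1.72 in place of 1.91 and 0.22 in place of 0.59.

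Per cell, at 1500 counts each, 26.8% of radial glia in E14.5 wild type had a count of any Igf2bp gene, 43.3% in the E14.5 library labelled knockout, 17.0% in P0 wild type and 13.0% in P0 knockout. Before thinning the shares were 87.8%, 70.8%, 41.1% and 40.9%, at median depths of 8562, 3086, 5832 and 5874 counts. Erythroid cells of the E14.5 library labelled knockout, which serve as background for RNA free in the suspension, had 22.6% (7 of 31 cells, Clopper-Pearson interval 9.59% to 41.1%, 28.1% unthinned, median depth 1923 counts). This background was above both P0 shares, but it was measured in an E14.5 library only and sets no level for P0. Of thinned P0 projection neurons, 91.6% in wild type and 91.1% in knockout had no count of any of the 8 members. Of thinned P0 radial glia, 81.7% and 85.0% had none. Whether erythroid cells express these genes themselves, and whether the P0 detections are free RNA, was not tested. The background interval included the share of E14.5 wild type, while the radial glia of the background's own library were above it at 43.3% (39.2% to 47.4%). The other libraries had 5 to 7 erythroid cells, too few to give a background of their own. Haemoglobin transcripts stood at 108, 299, 157 and 275 CPM in radial glia of the 4 libraries. Its part in the levels was not tested.

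Hmga2 was seen in 1.22%, 7.58%, 0.415% and 0.455% of thinned radial glia (18.3%, 14.1%, 2.49% and 1.14% unthinned), in 0.413%, 0.157%, 0 and 0 of thinned projection neurons, and in none of the microglia (0 of 46 thinned cells in the E14.5 library labelled knockout; 3 of 46, or 6.52%, is the share of cells with a count that a count of 0 allows, which sets no limit on cells that express the gene). Erythroid cells had 1 of 31 (3.23%, 3.13% unthinned), so the thinned value of E14.5 wild type, 1 cell of 82, is not above background. That of the E14.5 library labelled knockout, 45 of 594 cells, had a Clopper-Pearson interval of 5.58% to 10.01%. The mean number of distinct members seen per thinned cell was 0.327, 0.464, 0.135 and 0.146, and 2 or more were seen together in 3.57%, 7.29%, 0.288% and 0.91% of cells.

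The second comparison of the study, between genotypes within an age, was not the contrast on which the members were chosen. It uses the same libraries and summed counts as that choice, so it is not independent of it. Whether the choice favoured one label was not tested. At E14.5, where Tsku goes against the label, none of 7 measured members was 2-fold apart, against 6.54% of 14134 features. In the library labelled knockout 6 of 7 were higher, where the median over all features was also above 0, at 0.06. Of these 6, Lin28b and Hmga1 were within counting error. Igf2bp3 was higher there by 0.74 (0.59 to 0.90) on the log2 scale, Igf2bp2 by 0.57 (0.36 to 0.78), Hmga2 by 0.64 (0.20 to 1.11) and Igf2bp1 by 0.21 (0.07 to 0.35). Lin28b, at 0.46 (-0.17 to 1.14), and Hmga1, at 0.25 (-0.28 to 0.81), were within counting error. The near-identical Hmga1b was lower there, at -1.32 (-1.64 to -1.01), and Hmga1 and Hmga1b together were at -0.87 (-1.13 to -0.60). After thinning, 3 of 7 members were past 2-fold, where 7.96% of features were, among them Hmga2 at 2.07 and Hmga1 at 1.35, with few counts left in E14.5 wild type. Onecut2 was lower, at -0.46 (-0.69 to -0.23). The median over the 7 was 0.46, against 0.06 over all features.

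At P0, where the knockout had no Tsku, none of 6 measured members was 2-fold apart, against 4.79% of 13828 features. Igf2bp1 had a log2 ratio of knockout over wild type of -0.13 (-0.40 to 0.14), Igf2bp2 of -0.08 (-0.59 to 0.44) and Igf2bp3 of 0.07 (-0.15 to 0.30), all within counting error. Hmga2 had 0.84 (-0.12 to 1.88), and 2.55 after thinning. Onecut2 was higher in the knockout, at 0.69 (0.29 to 1.12). The summed level of the 3 Igf2bp genes was 87.6 CPM in P0 wild type and 86.6 CPM in P0 knockout.

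Within classes the genotype ratios were less even. In radial glia 1 of 5 members was 2-fold apart at E14.5 (11.3% of features), Onecut2 at -2.39 (-3.16 to -1.65), which became -1.18 without barcodes of more than 20000 counts, -1.59 without barcodes found in more than 1 library, -1.43 with classes from clusters and -1.60 after thinning. At P0 none of 3 was (4.66%). In projection neurons at E14.5, 1 of 6 was (6.41%), Lin28b at 1.60 (0.08 to 3.58) from 27 and 4 counts, and it was -0.076 after thinning and 0.93 with classes from clusters. Intermediate progenitors and inhibitory neurons each had 1 of 4 members past 2-fold at E14.5 (8.34% and 6.49% of features), Igf2bp3 and Igf2bp2, both higher in the library labelled knockout. In projection neurons at P0, 1 of 3 was (2.75%): Igf2bp3 was lower in the knockout at -1.09 (-1.77 to -0.44), from 30 against 62 counts, and Onecut2 stood at 0.84 (0.32 to 1.37). Animal, sex at E14.5, library depth and genotype cannot be told apart in these differences.

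**Figure D5:**
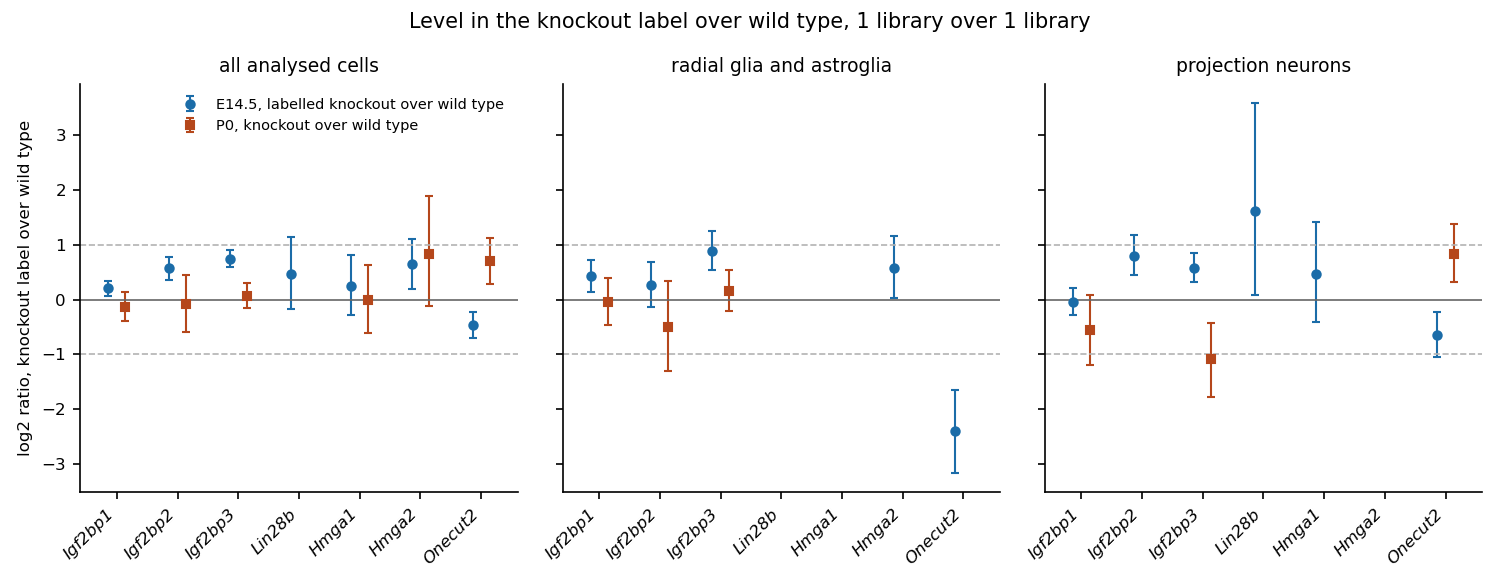
Log2 ratio of the knockout label over wild type at E14.5 (circles) and P0 (squares) for 7 genes in all analysed cells, in radial glia and astroglia, and in projection neurons, with conditional binomial 95% intervals, shown where both libraries together hold at least 30 counts and neither is at 0. Dashed lines mark 2-fold. In all cells every ratio lies within 2-fold, and Onecut2 lies below 0 at E14.5 and above 0 at P0.

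Other genes of the same pathways, are given by list. Among 17 genes of the LIN28 and let-7 machinery, such as Dicer1, Drosha and the Tut and Ago genes, 14 were measured over all cells. Of these, 0 were 2-fold higher at E14.5 in either pair (5.05% and 6.13% of features), with medians of -0.06 and -0.03. In radial glia Msi1, an RNA-binding protein of neural stem cells, had log2 age ratios of 0.47 and 1.04, and Tut4, which tags let-7 precursors, of 0.69 and 0.56 (wild-type pair first).

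Of 26 known let-7 targets outside the members, 22 and 24 were measured over all cells. None was 2-fold higher at E14.5 in either pair (5.05% and 6.13% of features). In turn 2 and 3 were 2-fold lower (6.17% and 12.8% of features), and the medians were -0.09 and 0.10. In radial glia 0 of 19 were 2-fold higher in the wild-type pair (5.12% of features) and 3 of 20 in the knockout-label pair (7.87%), with medians of 0.01 and 0.49. In projection neurons 1 of 19 (3.96%) and 4 of 21 (8.2%) were, with medians of 0.003 and 0.23. In radial glia Mycn, a growth-promoting transcription factor, had log2 age ratios of 0.26 and 1.36, and Gatm, an enzyme of creatine synthesis, of -1.42 and -3.61.

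The rows of the let-7 genes Mirlet7d and Mirlet7i were at 0 in all 4 libraries, so mature let-7 was not measured, but host transcripts were. Mir99ahg, which hosts let-7c and miR-125b, stood at 74.7, 54.4, 120.2 and 128 CPM, and Mir100hg, which hosts let-7a and miR-125b, at 175, 140.2, 386 and 251 CPM. Both were lower at E14.5 than at P0, the opposite order of the Igf2bp genes and Lin28b. In projection neurons the difference was wider, with Mir100hg at 215, 168, 647 and 522 CPM. In radial glia Mir100hg stood at 144, 128, 165 and 148 CPM, and its log2 age ratios of -0.19 (-0.50 to 0.11) and -0.21 (-0.43 to 0.01) were within counting error. Mir9-3hg, which hosts miR-9, stood at 64.2, 72.5, 164 and 257 CPM in radial glia. Of 5 measured host transcripts of microRNAs over all cells, not of let-7 alone, 1 (Rian) was 2-fold higher at E14.5 in each pair (5.05% and 6.13% of features). In each pair 2 were 2-fold lower (6.17% and 12.8% of features), with the miR-9 host Mir9-3hg among them at -1.43 and -1.84.

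IGF2BP partners and bound transcripts numbered 19, of which 2 and 3 were 2-fold higher at E14.5 over all cells (5.05% and 6.13% of features). In radial glia Elavl1 (HuR), which binds AU-rich transcripts, had log2 age ratios of 0.86 and 1.21, Elavl2 of 1.38 and 0.64, and Mapk4, a known bound transcript, of -2.64 and -3.41. Of 10 other high mobility group genes, 0 were 2-fold apart between ages in either pair over all cells. Of all features, 5.05% and 6.13% were 2-fold higher at E14.5 and 6.17% and 12.8% lower. Of 16 early chromatin genes, 0 and 2 were 2-fold higher at E14.5 over all cells (5.05% and 6.13% of features). In radial glia 0 and 5 were (5.12% and 7.87% of features). There Ezh2, the catalytic subunit of Polycomb repressive complex 2, had log2 age ratios of 0.36 and 1.48, and its partner Eed of 0.70 and 1.35. Of 18 measured stem cell RNA-binding genes, 1 and 1 were 2-fold higher over all cells (5.05% and 6.13% of features), and 3 and 4 in radial glia (5.12% and 7.87%), where Khdrbs2 had 1.70 and 1.70.

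Late temporal and gliogenic genes stood the other way round. Of 20, among them Slc1a3 and Hes5, which also serve as markers of the radial glia class, 15 and 17 were 2-fold lower at E14.5 over all cells, where 6.17% and 12.8% of features were, and 13 and 14 in radial glia, where 8.58% and 14.6% were, with medians of -1.57 and -2.19 there. Sparcl1, a secreted astrocyte protein, had log2 age ratios of -3.55 and -5.89, and Egfr, the receptor for epidermal growth factor, of -3.14 and -4.05. The Onecut and Cut factors gave 4 measured genes of 6 over all cells, none 2-fold higher at E14.5 (5.05% and 6.13% of features). The paralogs Onecut1 and Onecut3 had at most 4 and 2 counts in any library.

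The genes whose levels ran most alike with a member were ranked over 20 sums of a class in a library of at least 50 cells, by the Pearson correlation of log2(CPM + 10) among 11536 features. These sums share libraries, depth and cells, and the values are a description. Igf2bp3 and Igf2bp2 were each other's closest or second closest (0.855), after Phtf1 for Igf2bp2 (0.89) and ahead of Pdk3 for Igf2bp3 (0.842). For Igf2bp1 these were Cycs (0.891), Rn18s-rs5 (0.888) and Hnrnpc (0.873), and for Hmga2 Pgrmc2 (0.877), Samd4 (0.866) and Ildr2 (0.817). For Lin28b they were Ptprc (0.859), Shox2 (0.858) and Syt13 (0.832), for Hmga1 Bahd1 (0.828), Pikfyve (0.802) and Mterf2 (0.785), and for Onecut2 Fem1b (0.814), Erc1 (0.813) and Kdm1a (0.804). The third for Igf2bp2 was Gspt1 (0.845) and for Igf2bp3 Ccdc90b (0.811).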

How the data were processed

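Single-cell libraries of 4 mouse cortices, 1 animal per group, were deposited as whole-number counts per gene and barcode. Per the submitters' processing notes, the build was GRCm39 and FastQC 0.12.1, Seurat 5 and R 4.3.2 were named. The aligner and any collapsing of reads to molecules, not given in the sources used here, are unknown, so intervals cover counting error only.

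Barcodes were kept at 500 or more counts, 300 or more genes and a mitochondrial share of 10% or less. Scrublet marked 11 barcodes, under 0.5% in every library, and so did not work as a doublet filter; those marked were removed. A barcode took the class with most of its 8 markers detected, at least 3 and more than any other class. Counts were summed per class and library and scaled to CPM, with exact Poisson intervals, and ratios had conditional binomial intervals. A feature was called at 2-fold with at least 30 counts over both sums, and a fold against 0 used a floor of 3 counts. With 1 library per group no test was run. The ratios and calls were tested on simulated data. Shares of cells were taken after thinning to 1500 counts, which left out 1, 141, 1 and 1 cells, with Clopper-Pearson intervals.

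The members, lists and alternatives were chosen with earlier results of these data known. All 8 members were named, with the 3 features most alike each, and up to 2 genes from either end of each list in radial glia and astroglia. Mature microRNAs came from RefSeq and 3' UTRs from GENCODE, both on GRCm38, matched by name, since coordinates of the counts' build were not used here. The scripts ran on scanpy 1.11.5, scipy 1.17.1, numpy 2.4.6, pandas 2.3.3, matplotlib 3.10.9 and Python 3.11.15, with edgeR 4.0.16 for TMM scaling as an alternative only.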

Additional observations from a re-analysis of the deposited data

Results flagged for a closer look

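Some ratios pointed in opposite directions at the 2 ages or in the 2 pairs, with intervals on opposite sides of 0 in every case. Each rests on 1 library per group, the differences were not tested, and all of them share libraries with one another.

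Onecut2 over all analysed cells was lower in the E14.5 library labelled knockout than in E14.5 wild type, at -0.46 on the log2 scale, and higher in P0 knockout than in P0 wild type, at 0.69. In projection neurons the same ratios were -0.64 and 0.84, so that the log2 ratio of E14.5 over P0 was 0.96 in the wild-type pair and -0.51 in the knockout-label pair. Deep-layer cells, where Onecut2 was higher in both E14.5 libraries, were 812 of 1311 projection neurons in the E14.5 library labelled knockout and 99 of 242 in E14.5 wild type. The median depth of projection neurons was 3093 and 7521.5 counts in these libraries, and whether depth shaped the layer split was not tested. Among upper-layer cells alone the E14.5 ratio was -1.37 (-2.39 to -0.42).

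Igf2bp3 in projection neurons was higher in the E14.5 library labelled knockout than in E14.5 wild type, at 0.58, and lower in P0 knockout than in P0 wild type, at -1.09. Among upper-layer cells these ratios were 0.61 (0.17 to 1.06) and -1.20 (-1.91 to -0.52).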

How the results depend on the processing

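Alternatives were compared on the counts of members past 2-fold and on 64 log2 ratios of single members, or the 37 of these within classes where only the classes changed. With TMM scaling and with a total without mitochondrial, ribosomal protein and haemoglobin genes, 64 of 64 ratios had the same sign, and with gates of 2 or 4 markers or classes from clusters 37 of 37. With all deposited barcodes or without the 5% highest Scrublet scores 61 of 64 had. After thinning to 1500 counts 55 of 58 had the same sign and 23 of 24 stayed past 2-fold. Thinning left 3 members (of 4 measured) 2-fold higher at E14.5 in the wild-type pair in place of 5, where 2.41% of features were, put 3 of 7 members (Igf2bp3, Hmga1 and Hmga2) 2-fold apart between the E14.5 labels in place of 0, where 7.96% of features were, left no measured member in radial glia of the wild-type pair, and turned Lin28b between the E14.5 labels in projection neurons from 1.60 to -0.076. A 1.5-fold threshold gave 2 of 7 members apart at E14.5 (Igf2bp3, Hmga2), where 20.6% of features were, and 2 of 6 at P0 (Hmga2, Onecut2), where 14.8% of features were. The cause of these changes was not tested, apart from the lower threshold and the fewer counts after thinning.

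The remaining alternatives were chosen after seeing the data. Without barcodes of more than 20000 counts 1 member, Lin28b at 1.01, was 2-fold apart between the E14.5 labels, and 62 of 64 ratios had the same sign, as they did without the barcode with most counts of the member. Without barcodes found in more than 1 library 64 of 64 had. Over all alternatives Onecut2 in radial glia between the E14.5 labels ranged from -2.84 to -1.18. No paired analysis was possible because each group is 1 library, so that no replicate number is shared. For the same reason no replicate could be left out. Depth limits Lin28a, which was not detectable, and Lin28b and Hmga1 within classes.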
